A study of Homo sapiens with 6 samples.

Results

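This account concerns the long intergenic noncoding RNAs named LINC that were detected in AGS cells, an established line from a human gastric adenocarcinoma, after silencing of C1GALT1. They were chosen by signal: a LINC gene counted as detected when a probe of it passed the scanner software's test for signal well above background on every array of si-control or of the knockdown group, and its brightest probe (by mean log2 signal) stood for the gene. Of 1130 LINC genes with a probe, 654 (57.9%) were detected, against 78.8% of all named genes and 81.6% of the 18216 protein-coding genes on the array. The choice used the signal itself, so how many were seen in each group is a description and was not tested.

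LINC symbols are given by position and transcript type, to RNAs that lie between protein-coding genes, are longer than small RNAs, carry no long open reading frame and often have no known role. Most are made by RNA polymerase II like messenger RNAs, many are spliced inefficiently and stay near the chromatin, and the nuclear exosome degrades a large share of them. Some act on the gene beside them, some act elsewhere in the cell, and for others transcription alone may matter.

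The study silenced C1GALT1, the enzyme that adds galactose to O-linked GalNAc and so makes the T antigen of mucin-type O-glycans. AGS cells were transfected for 48 h with a nontargeting siRNA (si-control) or with 1 siRNA against C1GALT1 (si-C1GALT1-3), and 3 samples of each group were hybridized, each to 1 one-colour Agilent array. All groups share the cell line, the growth medium with serum and the transfection, and a single siRNA sequence in a single line stands for the knockdown. Nothing in the labels says that samples came from separate cultures, so p-values measure the spread between these samples, which may be technical.

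C1GALT1 itself read 12.22, 13.03 and 12.62 (log2 normalized signal) in si-control and 11.76, 11.98 and 11.13 in si-C1GALT1-3, a difference of -1.00 ± 0.31 (SE). The groups did not overlap, while the adjusted p was 0.265 (limma) and the unadjusted p lay above 0.01, so the target stood short of the threshold of p under 0.01 and 2-fold used below. Per array, 66.2% to 72.7% of gene spots cleared background and none was saturated. On si-control replicate 2, a block of the array had only 36.5% of spots well above background against 71.9% outside it, and spots in the block were left out, which removed that array's value for 111 of the 654 LINC RNAs. In each pair of arrays on a slide si-control held the first column and si-C1GALT1-3 the second, so column and treatment cannot be told apart. All 6 epithelial markers, KRT8 and CDH1 among them, were well above background on all 6 arrays, with a summed linear signal of 429049 to 657049 in si-control and 341685 to 594108 in si-C1GALT1-3. The fibroblast markers COL1A2 and LUM were above background on no array and 2 of the 5 markers on all 6, and COL1A1 and LUM lay in the faulty block of si-control replicate 2. The other 3 summed to 349.5 to 966 in si-control and 879.5 to 1512 in si-C1GALT1-3, ranges that overlap. Within every slide, though, this sum was higher in si-C1GALT1-3 (1106 against 349.5, 1512 against 966 and 879.5 against 497.5). COL3A1, by far the brightest of these 3, gave 1.17 ± 0.46 (SE; adjusted p = 0.350, limma) and made up most of the sum. COL1A2 and DCN, at or near background, gave -0.18 and -0.70. COL1A1 gave -0.05 and LUM, also at background, 0.88, so the higher sum is that of COL3A1 and not of the markers as a set. The epithelial sum was lower in si-C1GALT1-3 within every slide, and its brightest markers KRT8 and KRT18 gave -0.29 and -0.36. KRT19 gave -0.04 and CLDN4 -0.14, while EPCAM (0.15) and CDH1 (0.21) were higher within every slide. Of the 6 epithelial markers 0 had an unadjusted p under 0.05 (limma), beside 17.7% of detected probes. Of 5 leukocyte markers 3 were above background on all 6 arrays, PTPRC among them, with sums of 12945 to 21342 and 12534 to 13925. The erythroid marker HBB was lower in si-C1GALT1-3 by the threshold (-1.63, adjusted p = 0.151), with sums of 93.2 to 198 and 36.2 to 59.6. The part of these markers in the results below was not tested, and in such bulk samples fewer cells of a type and less RNA per cell cannot be told apart.

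LINC00324, LINC01521, LINC00294, LINC02210, LINC00311, LINC01719 and LINC00824 were higher after C1GALT1 knockdown, and LINC01191 and LINC02240 were lower. These 9 of 654 (1.38%) passed p under 0.01 and 2-fold, 7 higher (1.07%) and 2 lower (0.306%), beside 3.12% of all 38430 detected probes, 1.97% higher and 1.15% lower. Here and below the background counts every detected probe, while each LINC RNA has 1 probe. With 1 detected probe per named gene, the shares were 3.81%, 2.35% higher and 1.46% lower. No LINC RNA passed an adjusted p of 0.05 over all 58195 probes tested with limma, where 49 probes did (0.0842%). The smallest adjusted p among the LINC RNAs was 0.0803, and 86 of them (13.1%) had an unadjusted p under 0.05, beside 17.7% of detected probes. With the methods' t-test there were also 0 LINC RNAs after Benjamini-Hochberg adjustment, and 72 (11%) at an unadjusted p under 0.05, beside 14.8% of detected probes. With the slide as a block, these counts were 0 and 106 (16.2%), beside 21.9%. Over the 17 alternative settings the smallest adjusted p (limma) was 0.011 for LINC00324, 0.043 for LINC01521 and 0.043 for LINC00294. These RNAs thus fell under 0.05 in some settings and not in the main one. The split of 7 higher and 2 lower became 4 and 4 with scaling to the 75th percentile, and 1 and 9 with the faulty block of si-control replicate 2 kept.

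The promoters of 4 of the RNAs that rose and of both that fell are printed first, because they show how unlike the starts of these genes are. Each runs from 250 bases before to 50 bases after the annotated start, taken from RefSeq (GRCh38.p14) and written 5′ to 3′ on the gene's own strand. Capitals mark matches, on either strand, to the CCAAT box (CCAAT), the GC box (GGGCGG), the TATA box (TATAAA) and the cell cycle homology region (TTTGAA). Matches to different motifs were counted separately, also where they overlapped.
LINC00324 promoter, chr17:8223994-8224293, minus strand: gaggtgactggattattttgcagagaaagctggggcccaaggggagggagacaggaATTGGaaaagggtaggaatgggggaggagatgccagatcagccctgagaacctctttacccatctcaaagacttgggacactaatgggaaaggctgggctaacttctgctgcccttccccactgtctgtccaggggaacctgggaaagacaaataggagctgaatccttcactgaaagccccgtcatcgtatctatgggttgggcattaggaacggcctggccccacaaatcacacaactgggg
LINC01521 promoter, chr22:31346509-31346808, plus strand: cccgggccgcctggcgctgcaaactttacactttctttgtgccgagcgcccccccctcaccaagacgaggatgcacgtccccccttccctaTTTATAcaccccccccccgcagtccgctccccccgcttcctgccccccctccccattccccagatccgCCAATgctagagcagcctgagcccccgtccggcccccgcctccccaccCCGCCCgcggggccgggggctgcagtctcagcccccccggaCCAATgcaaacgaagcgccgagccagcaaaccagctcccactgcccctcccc
LINC00294 promoter, chr11:33075900-33076199, plus strand: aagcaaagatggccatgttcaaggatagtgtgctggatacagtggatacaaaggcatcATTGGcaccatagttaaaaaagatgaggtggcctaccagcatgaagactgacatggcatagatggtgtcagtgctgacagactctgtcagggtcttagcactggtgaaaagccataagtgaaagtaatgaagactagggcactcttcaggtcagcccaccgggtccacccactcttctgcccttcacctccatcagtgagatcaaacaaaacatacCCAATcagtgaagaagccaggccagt
LINC02210 promoter, chr17:45620079-45620378, plus strand: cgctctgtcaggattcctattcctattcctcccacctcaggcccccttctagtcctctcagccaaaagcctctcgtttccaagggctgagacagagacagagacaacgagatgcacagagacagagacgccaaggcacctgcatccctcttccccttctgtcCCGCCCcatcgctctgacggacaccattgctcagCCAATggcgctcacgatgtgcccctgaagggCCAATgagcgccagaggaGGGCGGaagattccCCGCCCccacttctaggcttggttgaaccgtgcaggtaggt
LINC01191 promoter, chr2:113969072-113969371, plus strand: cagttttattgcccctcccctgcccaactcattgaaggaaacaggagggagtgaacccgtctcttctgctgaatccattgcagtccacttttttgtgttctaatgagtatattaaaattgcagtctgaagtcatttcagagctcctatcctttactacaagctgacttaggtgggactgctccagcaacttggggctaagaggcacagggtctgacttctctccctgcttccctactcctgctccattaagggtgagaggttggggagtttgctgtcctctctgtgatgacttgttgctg
LINC02240 promoter, chr5:125493011-125493310, plus strand: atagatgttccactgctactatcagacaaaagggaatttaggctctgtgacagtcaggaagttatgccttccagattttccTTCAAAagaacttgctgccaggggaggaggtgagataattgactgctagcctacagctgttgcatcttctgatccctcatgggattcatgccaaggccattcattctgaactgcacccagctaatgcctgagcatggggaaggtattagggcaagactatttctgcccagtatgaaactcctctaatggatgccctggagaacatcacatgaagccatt
The LINC01521 window held 22 CpG pairs and the LINC02210 window 13, beside a median of 14 over all windows of this length. The LINC00324, LINC00294, LINC01191 and LINC02240 windows held 3, 1, 1 and 0. The windows of LINC00311 and LINC01719, which also rose, held 5 and 20 CpG pairs and none of the motifs, and are not printed. CCAAT was thus in 4 of the 6 windows on hand for RNAs that rose, and in 0 of the 2 for RNAs that fell. It is 1 of 7 motifs searched and was in 35.7% of all windows, and these counts are too small to be set against that share.

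LINC00324, which RefSeq also lists as TP53LC03, lies beside CTC1, a subunit of the CST complex that protects telomeres and completes their replication. Its log2 signal was 4.24, 4.96 and 5.35 in si-control and 8.23, 7.43 and 8.35 in si-C1GALT1-3. All 3 knockdown samples lay above all 3 control samples. In si-control no array cleared background, so only a bound holds: LINC00324 was at least 5.80-fold higher after knockdown (adjusted p = 0.0803). Such a bound sets the mean of the brighter group against the lowest signal that still counted as well above background on each array of the dimmer group. The call held in all 17 alternative settings run, but LINC00324 entered through si-C1GALT1-3 alone, so its direction is in part set by the detection rule. The size did not: with normexp and an offset on the median spot signal the fitted rise was 1.69 (log2), below the bound, which applies to the processed signal. CTC1 gave 0.98 ± 0.31 (adjusted p = 0.269).

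LINC01521 lies beside PATZ1, a zinc-finger transcription factor. Its signal was 4.53, 5.86 and 4.49 in si-control, where 1 of 3 arrays was well above background, and 7.17, 7.35 and 6.77 in si-C1GALT1-3. The groups did not overlap and the fitted rise was 2.13 ± 0.42 (log2, SE; adjusted p = 0.141). LINC01521 entered through si-C1GALT1-3 alone, so its direction and this separation are in part set by the detection rule. With control values raised to the lowest signal well above background on their array the difference was 1.47, and with normexp the rise was 0.97, under 2-fold. PATZ1 itself stood at 0.07 ± 0.17.

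LINC00294 lies beside TCP11L1, with CSTF3, a subunit of the cleavage stimulation factor, on its other side. It was the only riser that was well above background on all 6 arrays, at 8.18, 8.83 and 8.40 in si-control and 9.62, 9.87 and 9.81 in si-C1GALT1-3. The groups lay apart by more than the spread within either, and the rise was 1.30 ± 0.21 (SE; 95% interval 0.79 to 1.81; adjusted p = 0.107). It passed in 16 of 17 alternative settings, the exception being the fit that kept the faulty block of si-control replicate 2. CSTF3 gave 0.60 ± 0.22 (adjusted p = 0.315) and TCP11L1 0.25 ± 0.16 (adjusted p = 0.551).

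LINC02210, LINC00311 and LINC00824 had their si-control replicate 2 spot in the faulty block, so 2 control values stand against 3. LINC02210 read 7.90 and 8.20 in si-control and 9.32, 9.41 and 8.97 in si-C1GALT1-3, a rise of 1.19 ± 0.22 (SE; adjusted p = 0.150). Its neighbour PLEKHM1, an adaptor of lysosome fusion, also stood higher, by 0.83 ± 0.13 (adjusted p = 0.101), under 2-fold. LINC00311, which overlaps the span of GSE1, read 7.21 and 6.41 against 8.0, 8.12 and 8.11, a rise of 1.27 ± 0.28 (adjusted p = 0.191). GSE1 gave -0.01 ± 0.19. LINC00824 read 8.22 and 7.69 against 9.29, 9.03 and 8.86, a rise of 1.10 ± 0.25 (adjusted p = 0.196), while MYC, its nearest coding gene, gave 0.37 ± 0.17 (adjusted p = 0.418). A second detected LINC00824 probe, which was dimmer, gave 0.48 ± 0.40 (adjusted p = 0.659), and an undetected probe of the first one's accession -0.32 ± 0.57. In all 3 RNAs the groups did not overlap, on 5 values. All 3 entered through si-C1GALT1-3 alone, with 2 si-control arrays well above background, so the detection rule favours this direction. With normexp the rises were 0.97, 0.81 and 0.84, each under 2-fold. With the slide as a block, LINC02210 (1.10) and LINC00311 (1.25) no longer had p under 0.01.

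LINC01719, beside NBPF10 of the multi-copy NBPF family, was dim. Its signal was 5.44, 6.11 and 5.24 in si-control, with 1 of 3 arrays well above background, and 6.71, 6.84 and 6.69 in si-C1GALT1-3, a fitted rise of 1.15 ± 0.25 (SE; adjusted p = 0.163). With control values raised to the floor in the same way the difference was 1.01, and with normexp it was 0.54, under 2-fold. The groups did not overlap, but LINC01719 entered through si-C1GALT1-3 alone, so the detection rule in part sets this. NBPF10 gave 0.07 ± 0.21. Near-identical copies in this stretch of the genome could share a probe.

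LINC01191 and LINC02240 were well above background on all 6 arrays. LINC01191, near ACTR3 (the Arp3 subunit of the complex that nucleates branched actin), fell from 13.82, 12.82 and 12.48 in si-control to 11.37, 11.50 and 11.39 in si-C1GALT1-3, a difference of -1.62 ± 0.36 (SE; 95% interval -2.50 to -0.74; adjusted p = 0.164). The controls spread over more than 1 log2 unit, with replicate 1 highest, while the knockdown values lay close together, and the groups did not overlap. With the slide as a block its p rose above 0.01. LINC02240, near the zinc-finger gene ZNF608, fell from 10.69, 9.82 and 9.34 to 8.71, 8.08 and 8.40, a difference of -1.55 ± 0.38 (adjusted p = 0.193). Again si-control replicate 1 was the highest and the groups did not overlap. ACTR3 gave -0.38 ± 0.14 (adjusted p = 0.337) and ZNF608 0.50 ± 0.17 (adjusted p = 0.291).

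LINC02612 and LINC01522 were above background in 1 group only and did not pass the threshold. LINC02612 read 5.40, 4.28 and 4.49 in si-control, on no array above background, and 5.79, 7.31 and 5.85 in si-C1GALT1-3, at least 1.79-fold higher (adjusted p = 0.280). LINC01522, near SULF2 (an extracellular heparan sulfatase), read 6.39, 5.61 and 6.17 in si-control and 4.20, 3.64 and 5.35 in si-C1GALT1-3, on no array above background there, at least 1.65-fold lower (adjusted p = 0.241). Neither pair of groups overlapped, which the detection rule in large part sets. LINC01522 passed in 5 of 17 alternative settings, those with the 75th percentile, no normalization, the faulty block kept, detected probes only, and without si-C1GALT1-3 replicate 3 (-2.13). LINC02612 passed in 1, the fit on detected probes. With normexp on the median spot signal the fitted differences were 0.64 for LINC02612 and -0.54 for LINC01522 (log2), short of these bounds. SULF2 stood at -0.54 ± 0.40.

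**Figure D1:**
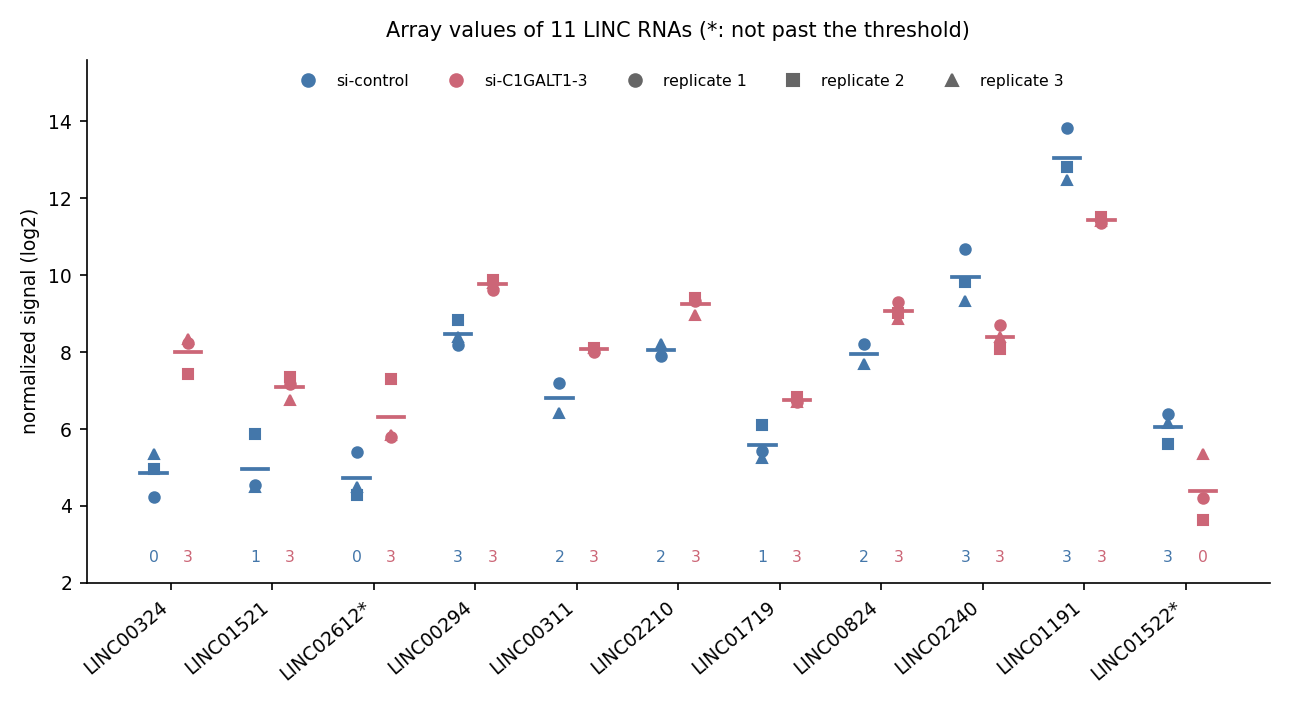
Log2 normalized signal on each array for the 9 LINC RNAs past p under 0.01 and 2-fold and for LINC02612 and LINC01522, marked with an asterisk, which did not pass. Blue is si-control, red si-C1GALT1-3, symbols are replicates, bars are group means, and the numbers at the foot count the arrays of 3 that were well above background; LINC00324 had 0 in si-control and 3 in si-C1GALT1-3.

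A further 13 LINC RNAs (1.99%) had p under 0.01 with a change under 2-fold, beside 2.92% of detected probes, and 3 of them with the smallest p were chosen here after their values were seen. LINC01000 went from 9.24 ± 0.19 (SD, 3 samples) in si-control to 10.19 ± 0.11 in si-C1GALT1-3, a difference of 0.95. LINC00174 went from 10.34 ± 0.10 to 11.15 ± 0.10 and LINC00863 from 10.94 ± 0.12 to 11.74 ± 0.12, differences of 0.81 and 0.80. Of the 13, 6 were higher and 7 lower, and of the lower ones LINC00536 had the smallest p, from 11.66 ± 0.22 to 10.75 ± 0.27, a difference of -0.91. In each of these 4 the groups did not overlap, which their choice by smallest p in large part sets.

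As a group the LINC RNAs sat slightly lower after knockdown. Their median log2 fold change was -0.14 (quartiles -0.43 and 0.13, range -1.66 to 3.15), with 241 above and 413 below 0 (63.1% below), beside a median of -0.0019 and 50.2% below 0 for all detected probes. Other noncoding transcripts with a RefSeq NR accession had a median of 0.014 and coding transcripts of 0.065. The medians have no test, because the LINC RNAs are not replicates of a treatment.

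Detection in 1 group only shapes part of these figures, since the rule favours RNAs that are brighter in the group through which they entered. Through si-control alone 28 entered, 25 of them below 0. Through si-C1GALT1-3 alone 86 entered, of which 52 had lost their si-control replicate 2 spot to the faulty block (21 above 0) and 34 had not (30 above 0). The other 540 carried the scanner's flag for signal well above background on all 6 arrays, 57 of them with a si-control replicate 2 spot in the faulty block, where the flag counted although the value was left out. Among the 540 the median was -0.15, with 187 above and 353 below 0 (65.4% below), beside -0.012 and 51.2% for all 33164 probes detected on all 6 arrays. Among the 483 with a value on all 6 arrays as well, the median was also -0.15, with 64.6% below 0, beside -0.0085 and 50.9% for such probes. In the 540, 3 passed the threshold, LINC00294 higher and LINC01191 and LINC02240 lower, beside 2.63% of probes detected on all 6 arrays (1.55% higher, 1.08% lower). Thus 6 of the 7 risers came from the RNAs seen on fewer than 6 arrays.

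The lower position was not even across slides. Within slides 1, 2 and 3 the LINC median was -0.20, -0.08 and -0.04, while detected probes stood at 0.016, -0.00022 and 0.0071. Of 542 LINC RNAs with values on all 6 arrays, 89 (16.4%) were higher and 149 (27.5%) lower within every slide, beside 27.4% and 24.7% of detected probes. The groups did not overlap for 31 (5.72%) higher and 70 (12.9%) lower LINC RNAs, beside 13.0% and 10.9%. At an unadjusted p under 0.05, 29 (4.43%) were higher and 57 (8.72%) lower, beside 9.52% and 8.15%. The LINC share among lower values was thus near the background at each of these rules, and the share among higher values was below it. Without si-control replicate 1 the median was -0.057, and without any other single array it lay between -0.19 and -0.11.

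Signal strength differed between LINC RNAs and other probes, so the medians were also set side by side in bins of mean signal cut at 7.58 and 9.54 (log2), which place 218 LINC RNAs in each. The LINC medians were -0.09 in the dim bin, -0.15 in the middle bin and -0.19 in the bright bin, beside -0.016, -0.030 and 0.016 for detected probes of the same bins. Below 0 were 56.9%, 63.8% and 68.8% of the LINC RNAs, beside 51.1%, 52.7% and 48.4%. Of the 7 risers 4 were in the dim bin, 3 in the middle and 0 in the bright bin. Replicates varied a little more for LINC RNAs, with a median SD of 0.39 in si-control and 0.26 in si-C1GALT1-3, beside 0.34 and 0.23 for all detected probes. Other noncoding transcripts were close to the LINC RNAs, at 0.37 and 0.26.

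**Figure D2:**
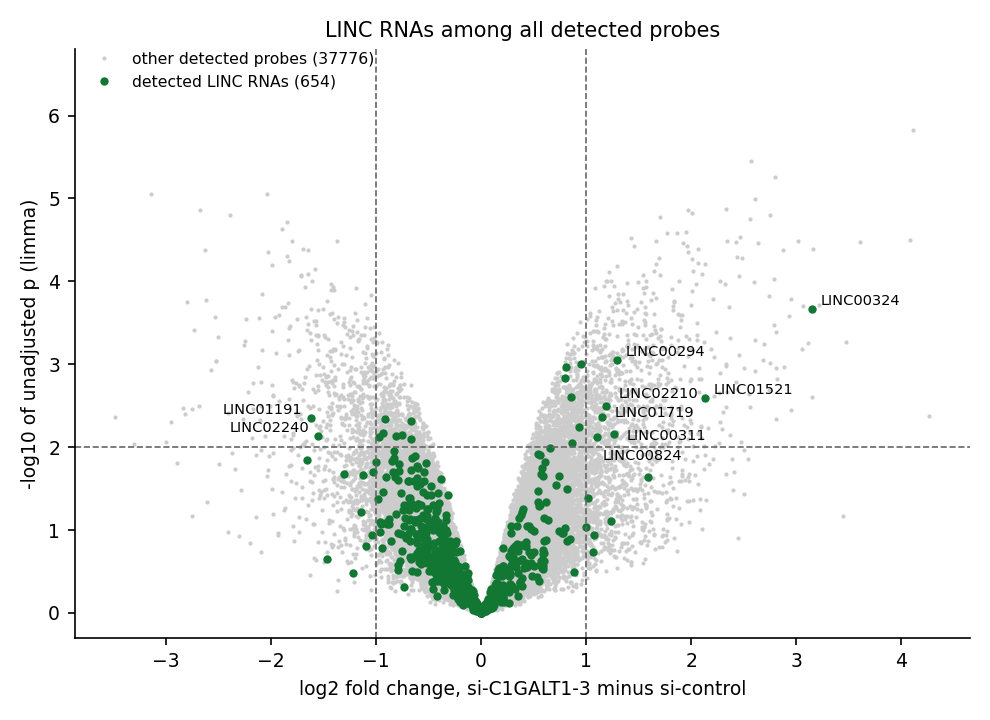
Log2 fold change (si-C1GALT1-3 minus si-control) against -log10 of the unadjusted limma p for the 654 LINC RNAs (green) and the other detected probes (grey), with dashed lines at 2-fold and a p of 0.01. The 9 named LINC RNAs lie outside the lines, 7 to the right and 2 to the left, and most of the green points lie inside, with 413 of 654 left of 0.

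At the edge of detection, the dimmest LINC RNAs inside were LINC01492, LINC01099 and LINC00871, with mean log2 signals of 5.73, 5.74 and 5.76. Just outside, with 2 arrays above background in their best group, the brightest were LINC00563, LINC01634 and LINC02608 at 6.79, 6.56 and 6.43. Of the 476 LINC genes left out, 75 had 2 arrays above background in their best group, 98 had 1 and 303 had none.

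A LINC gene often carried several probes, and these did not always move together. Of 166 LINC RNAs with several detected probes, 92 had all probes on the same side of 0, and the median range between probes of a gene was 0.44 (log2). With every detected probe considered, 16 of the 654 LINC genes had a probe past the threshold. They were drawn from 877 detected LINC probes, so a gene with several probes had several chances to pass. Of all detected probes 3.12% passed. The additional 7, named here after their values were seen, passed through a probe that was not their brightest. A larger change in a dimmer probe is thus set by this choice and is no result about dimmer probes.

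LINC01347 had 6 detected probes, and the brightest, at a mean near 15.2, gave 0.02 ± 0.19 (log2, SE). The other 5 gave 0.76, 0.64, 1.03, 1.34 and 1.42, of which the last 2 passed (adjusted p = 0.150 and 0.104). The probe with the largest rise read 7.37, 7.81 and 7.07 in si-control and 8.98, 8.82 and 8.71 in si-C1GALT1-3. All 5 dimmer probes were higher and the brightest was level, so what LINC01347 did depends on the probe taken.

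LINC00205, whose start lies head to head with that of POFUT2 (a protein O-fucosyltransferase), had 4 detected probes. The brightest gave -0.06 ± 0.17, the others 0.90, 0.69 and 1.14, of which the last passed (adjusted p = 0.103) at 6.86, 7.31 and 7.14 in si-control against 8.13, 8.44 and 8.16. For LINC00674 the brightest probe gave 0.51 ± 0.41 and the other 1.52 ± 0.25. LINC02298 gave 0.39 ± 0.17 and 1.12 ± 0.22 in the same order. In these 3 genes the dimmer probes showed the larger rise, which the choice of the genes in large part sets.

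LINC02614 gave -0.12 ± 0.17 with its brightest probe, and 1.00 ± 0.15 (past the threshold) and 0.95 ± 0.44 with the others. LINC01088 gave -0.71 ± 0.40 with the brightest, and was at least 1.83-fold higher with a probe above background on no si-control array, which passed by its fitted value (1.55) and not by this bound. The probes thus differed in sign. LINC00869 had 5 detected probes, all below 0. Of these, 1 fell (-1.35 ± 0.26, adjusted p = 0.140), and the other 4 lay between -0.29 and -0.23. Probes of a gene can sit on different transcripts, and the sequences of the probes were not used here.

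**Figure D3:**
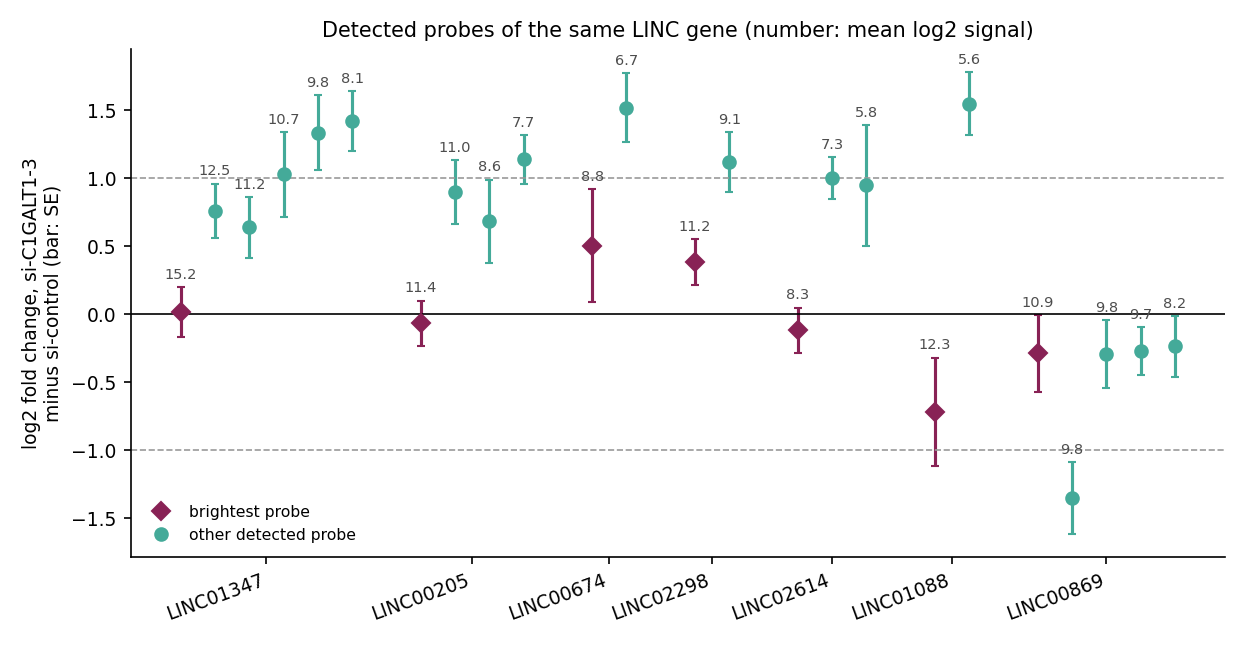
Log2 fold change with SE for each detected probe of the 7 LINC genes that passed only through a dimmer probe, ordered by mean log2 signal (the number above each point), with the brightest probe as a diamond. For LINC01347 and LINC00205 the diamond lies near 0 and the circles above it, and for LINC01088 the probes lie on opposite sides of 0, the circle at a fitted value whose si-control arrays were all below background.

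Among 30 LINC RNAs often studied in cancer, 28 had a probe and 23 were detected. LINC00337, LINC00346, LINC00473, LINC00511, LINC00525, LINC00858 and LINC01116 were not, or had no probe. Of the 23, 6 lay above and 17 below 0, with a median of -0.17, and 1, LINC00324, passed the threshold, beside 3.12% of detected probes. LINC00460, often raised in epithelial cancers, had the next smallest p, at 9.37 and 9.73 in si-control (replicate 2 in the faulty block) and 8.90, 8.81 and 9.22 in si-C1GALT1-3. Its groups did not overlap on 5 values, and the difference was -0.57 ± 0.22 (SE; adjusted p = 0.362), with an unadjusted p just under 0.05 and under 2-fold. With the slide as a block it was -0.49 and its p lay above 0.05. With LINC00324 and without the block, 2 of the 23 (8.70%) had p under 0.05, beside 17.7% of detected probes.

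LINC00261, a neighbour of the endoderm regulator FOXA2, read 7.61, 6.95 and 8.34 in si-control and 6.76, 7.17 and 6.88 in si-C1GALT1-3. The groups overlapped (-0.70 ± 0.37, adjusted p = 0.476), and the difference was -1.04 without si-control replicate 2 and -0.34 without replicate 3. LINC01224 gave -0.68 ± 0.39 and LINC00520 -0.55 ± 0.33, each with 3 control values spread over more than 1 log2 unit. LINC01224 was -1.08 and past the threshold without si-control replicate 1, and -0.32 without si-control replicate 3. LINC00520 was -0.22 without si-control replicate 2 and -0.80 without replicate 1.

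For 3 bright members of this list the groups overlapped and the intervals were narrow. LINC00941 read 16.68, 16.57 and 16.26 in si-control and 16.52, 16.39 and 16.22 in si-C1GALT1-3 (-0.13, 95% interval -0.55 to 0.30). LINC00963 read 15.80, 16.31 and 16.48 against 15.82, 15.94 and 16.34 (-0.17, interval -0.77 to 0.44). LINC00665, at 12.64, 12.17 and 11.72 against 12.40, 12.21 and 11.99, gave 0.02 (interval -0.65 to 0.69). These intervals leave out a 2-fold change in either direction, though smaller changes remain possible.

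The intervals of LINC-PINT (-0.45, from -2.08 to 1.17), an RNA induced by p53, and of LINC00662 (-0.17, from -1.82 to 1.48) do not leave out 2-fold. LINC-PINT lay below 0 within all 3 slides, and with the slide as a block its interval was -0.94 to 0.033 (adjusted p = 0.306). Leaving out 1 array moved it from -1.04 (without si-control replicate 3) to 0.0046 (without si-C1GALT1-3 replicate 3). LINC00662 went from -0.73 without si-control replicate 3 to 0.55 without si-control replicate 1. The sign also turned with 1 array left out for LINC-ROR, LINC00342, LINC00467, LINC00665, LINC00857, LINC01138 and LINC01234. Of these, LINC01138 went from -0.82 without si-control replicate 3 to 0.12 without si-control replicate 2. LINC01133 kept its sign but went from -0.88 without si-control replicate 3 to -0.04 without si-control replicate 1. LINC-ROR, known from pluripotent cells, gave -0.22 ± 0.49. LINC01133, LINC00472, LINC00668, LINC01089, LINC01138, LINC00342, LINC01234 and LINC00467 lay between -0.41 and -0.06. LINC00339, LINC01554, LINC01278 and LINC00857 lay between 0.06 and 0.41, and none of these had p under 0.05 in the fit without a block. With the slide as a block LINC00339 (0.41, 95% interval 0.042 to 0.78; adjusted p = 0.266) and LINC00472 (-0.36, interval -0.69 to -0.039; adjusted p = 0.266) had p under 0.05, and both kept their sign within all 3 slides.

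**Figure D4:**
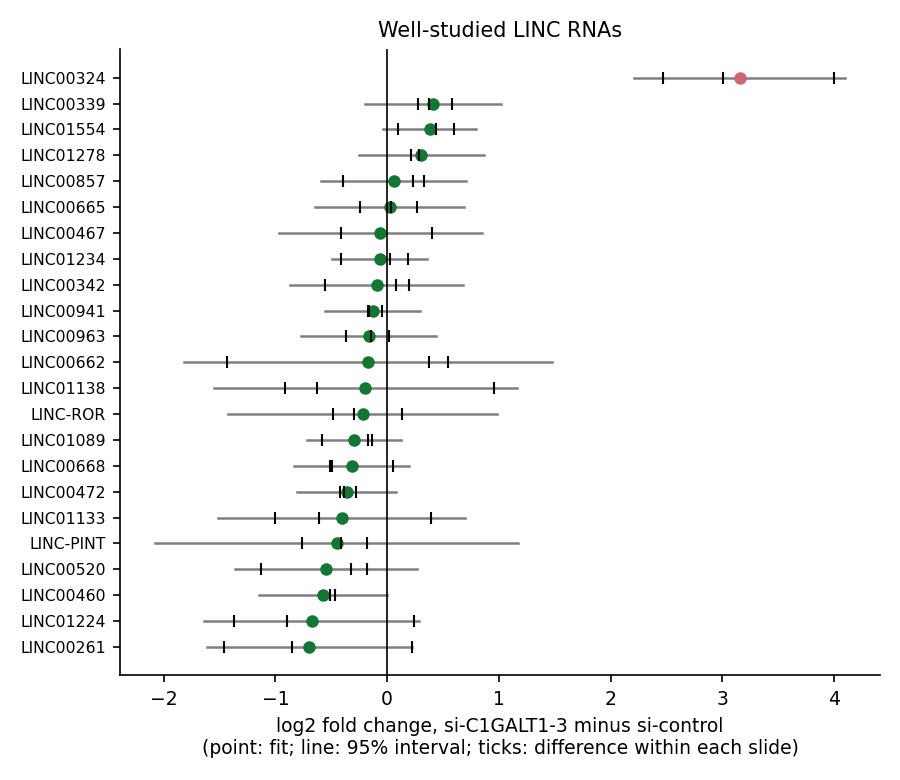
Log2 fold change (si-C1GALT1-3 minus si-control) of the 23 detected LINC RNAs of the studied list, with the 95% interval from limma (line) and the difference within each slide (ticks). LINC00324, in red, lies at 3.15, a fitted value and no measured size, since no si-control array cleared background; the other 22 lie between -0.70 and 0.41.

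To see whether LINC RNAs moved with the genes beside them, each was set beside its nearest protein-coding gene in RefSeq (GRCh38.p14). A detected coding neighbour was found for 477, in 426 genes. The 2 log2 fold changes had Pearson's r = 0.066 and Spearman's rho = 0.035 across these 477 pairs, which share arrays and in part neighbours, and 243 pairs (50.9%) had the same sign. These figures describe the pairs across genes and were not tested.

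In 21 LINC RNAs the neighbour passed the threshold, 15 beside a gene that rose and 6 beside a gene that fell, and 0 of these LINC RNAs passed. At the 1.38% of all LINC RNAs fewer than 1 of 21 would pass, so this 0 says nothing about LINC RNAs beside changed genes. Their log2 fold changes lay between -0.95 and 0.41, with medians of -0.25 beside risers and -0.33 beside fallers. The examples that follow were chosen after their values were seen. LINC00487, LINC01247 and LINC03156 lie beside CMPK2, an interferon-induced mitochondrial nucleotide kinase that rose by 1.56, and gave 0.05, -0.42 and -0.03.

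ID2, an inhibitor of basic helix-loop-helix factors, rose by 1.45. LINC00298 beside it read 7.32, 7.73 and 8.0 in si-control and 5.84, 6.85 and 7.52 in si-C1GALT1-3, a difference of -0.95 ± 0.46 (adjusted p = 0.434) with overlapping groups, and LINC00299 gave 0.0015. CCND1, cyclin D1, fell by 1.72, and LINC01488 beside it gave -0.24 ± 0.26. PDS5B, a cohesin regulator, fell by 2.41, and LINC00423 gave -0.69 ± 0.32 (adjusted p = 0.415).

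Starts that face each other within 1000 bases could share a promoter, and 12 LINC RNAs lay so with a coding gene, of which 10 pairs had both sides measured. In 7 of 10 the signs were the same, with r = 0.20 and rho = 0.35 as a description. No gene of these pairs passed by its brightest probe, while LINC00205 passed by a dimmer one. With 1.38% of all LINC RNAs past the threshold, such an absence among 12 says nothing about shared promoters. LINC01134 gave 0.87 ± 0.22 (adjusted p = 0.206) and its partner C1orf174 -0.15 ± 0.23. LINC01560 gave 0.55 ± 0.22 and its partner ZNF41 -0.73 ± 0.20. LINC01124 and SP5, a transcription factor induced by Wnt, gave 0.63 ± 0.28 and 0.68 ± 0.31, and LINC-PINT and MKLN1 -0.45 ± 0.66 and -0.22 ± 0.34.

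Promoter windows were on hand for 468 of the 654 LINC RNAs, and 27305 windows of the same length, over all genes, gave the background. The LINC windows held a median of 4 CpG pairs against 14 for all windows, and the GC box (GGGCGG) was in 23.9% against 44.6%. The cell cycle homology region (TTTGAA) was in 21.8% against 15.4%, TATAAA in 14.1% against 12%, CCAAT in 35.5% against 35.7%, and the E-box CACGTG in 6.84% against 7.43%. The cyclic AMP element TGACGTCA was in 1.07% against 1.98%. All letters were searched on both strands, and a match is a run of letters in the window, not a site that was measured.

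Median log2 fold changes of LINC RNAs were -0.05 with and -0.20 without CCAAT, -0.25 and -0.15 for TATAAA, -0.19 and -0.14 for TTTGAA, and -0.12 and -0.17 for GGGCGG. They were -0.20 and -0.15 for CACGTG, -0.17 and -0.15 for the ISRE-type motif, and -0.32 and -0.15 for TGACGTCA, which only 5 LINC windows held. These medians were not tested. Of the 8 RNAs past the threshold with a window 4 held CCAAT.

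Genes whose products end and degrade such RNAs were measured on the same arrays, and 0 of them passed the threshold. Of detected probes 3.12% passed, and of detected coding probes 4.32%, so in lists of this size the 0 says little. Detected coding probes had a median of 0.065, the background for the medians that follow. Of 23 genes of nuclear RNA decay 21 were detected, 15 above and 6 below 0 (median 0.14), 2 with p under 0.05 (9.52%), beside 17.7% of detected probes. DIS3, a catalytic subunit of the exosome, was highest at 0.73 ± 0.24 (adjusted p = 0.281), and ZFC3H1, of the adaptor that brings polyadenylated RNA to it, lowest at -0.36 ± 0.33. All 15 genes of Integrator, the complex that cleaves many noncoding transcripts, were detected, with a median of 0.11, from INTS15 at -0.21 ± 0.19 to INTS3 at 0.58 ± 0.21 (adjusted p = 0.328). All 21 genes of cleavage and polyadenylation were detected, with a median of 0.09 and 6 with p under 0.05 (28.6%, beside the same 17.7%). PPP1CB, a phosphatase subunit, was highest at 0.67 ± 0.19 (adjusted p = 0.242), and NUDT21, which steers the choice of polyadenylation site, lowest at -0.54 ± 0.20 (adjusted p = 0.333).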

How the data were processed

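Gene expression was measured in AGS cells with 3 si-control and 3 si-C1GALT1-3 samples, 1 array each of 62976 spots, 60901 of them gene spots. The authors deposited the output of Agilent Feature Extraction (version 10.5.1.1 in the submitters' processing notes), in which values are the intensity per spot, corrected for background and not normalized between arrays. A table for the whole series, also deposited, holds the background-subtracted intensity and served as an alternative.

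The log2 of the processed signal was taken. Outlier spots (100 to 424 per array) and spots in rows 113 to 288 and columns 59 to 115 of si-control replicate 2 were set to missing. Arrays were quantile normalized, spots of a probe averaged, and groups compared with limma 3.58.1 in R 4.3.3, with Benjamini-Hochberg adjustment over 58195 probes. The threshold was p under 0.01 and 2-fold, and the steps were tested on simulated data. Tables were handled with pandas 2.3.3 and scipy 1.17.1. The number of arrays limits the precision. Probes were named by RefSeq accession through a table of GRCh38.p14 (31104 with 1 symbol, 27097 with none, 0 with several). The files use another build, so coordinates are given only for RefSeq promoters.

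The LINC RNAs and lists were chosen with earlier results of these data known. Named were C1GALT1, every LINC RNA past the threshold, those above background in 1 group only, their nearest coding genes, the studied LINC RNAs, and the largest rise and fall of each list. The methods' t-test is the test that the study's general statistics name, while its arrays were tested with limma. Others are marked as chosen after their values were seen. By the scanner files, arrays of equal replicate number lay on 1 slide, and their deviations from the group means correlated at 0.20, 0.21 and 0.32, so the numbers pair the samples. Alternatives were another background correction, normalization, source, mask, filter, prior, test, a block for the slide and leaving out each array.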

Additional observations from a re-analysis of the deposited data

How the results depend on the processing

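The count of 7 higher and 2 lower LINC RNAs moved with most choices. Higher and lower were 4 and 4 with scaling to the 75th percentile, 4 and 1 without normalization between arrays, and 1 and 9 with the faulty block of si-control replicate 2 kept. The methods' t-test gave 2 and 0, and normexp on the median spot signal 2 and 3. The fit on detected probes gave 8 and 6, the deposited series-wide values 6 and 1, and the replicate block, which pairs arrays of a slide, 5 and 1. Detection counted over control spots outside the block gave 7 and 4 among 661 RNAs, detection on all 6 arrays, with the probe chosen anew, 1 and 2 among 545, and all 877 detected probes 14 and 3. Leaving out 1 array gave 2 to 8 higher and 0 to 9 lower. Without si-C1GALT1-3 replicate 1 or 2, only LINC00324 and LINC00294 of the 9 still passed, and without replicate 3 also LINC01521 and LINC02210. Without si-control replicate 1, LINC01521, LINC01719 and LINC02210 no longer passed, without replicate 2 LINC01191 and LINC02240, and without replicate 3 LINC00311, LINC00824, LINC01521 and LINC01719. The causes were not tested. The median log2 fold change, -0.14, was -0.044 without normalization and -0.188 to -0.057 with 1 array left out. With the faulty block of si-control replicate 2 kept it was -0.216. The 75th percentile moved the median of all probes to -0.11. Relative to detected probes, the LINC median stayed below 0 in all 18 settings, -0.11 to -0.16 except when 1 array was left out (-0.18 to -0.06). C1GALT1 passed the threshold when limma was fitted on detected probes only, at -1.00. LINC00324 passed in all 17 alternatives and LINC00294 in 16, while LINC00311 passed in 6, LINC01719 in 7, LINC00824 in 8, LINC02210 in 9, and LINC01521, LINC01191 and LINC02240 in 10 each. The 3 lists of RNA processing genes had 0 genes past the threshold in the settings run for them. The replicate block ended the calls of LINC00311, LINC02210 and LINC01191 and changed no other call. Naming probes by a gene name column was not run, since that column was not used here. For dim RNAs the signal over background limits what can be seen.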
